A study of Mus musculus with 7 samples.

Results

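The genes of MHC class II antigen presentation were followed through single-cell RNA profiles of the mouse pancreas. The members were the 8 genes named by a fixed list, H2-Aa, H2-Ab1, H2-Eb1, Cd74, H2-DMa, H2-DMb1, H2-DMb2 and Ciita, out of 33864 genes listed in at least 1 of the 3 deposited count tables, and all 8 were present in each table. The libraries came from 7 C57BL/6 mice aged 2 months (C57BL/6J.Ola.Hsd for the i4F line, per the methods of the study), 1 library per mouse, made with droplet 3′ chemistry that counts unique molecular identifiers (UMIs). The WT group (2 mice) carried no reprogramming transgene and drank doxycycline at 1 mg/ml for 7 days. The i4F group (3 mice) drank the same doxycycline and carried the i4F-B alleles, a cassette of the reprogramming factors Oct4, Sox2, Klf4 and Myc that doxycycline switches on, inserted in Pparg and the rtTA activator in Rosa26, both in heterozygosity, so that the factors were induced in many cell types of the organ and in other organs too. The caerulein group (2 mice) was wild type and received caerulein, a secretagogue that causes acute pancreatitis, at 100 µg/kg in 7 injections a day on 2 days, with no doxycycline in its labels. A difference between caerulein and WT mice therefore cannot be told apart from the presence of doxycycline in the WT mice. The question was where class II transcripts lay in the pancreas and how they differed between reprogramming, pancreatitis and the healthy organ.

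MHC class II molecules are dimers of an alpha and a beta chain that display peptides from ingested proteins to CD4+ T cells. In mice of the H-2b haplotype, such as C57BL/6, the I-A dimer of H2-Aa and H2-Ab1 reaches the cell surface, whereas H2-Eb1 is transcribed without a functional partner because the E alpha gene is inactive. Cd74, the invariant chain, chaperones the dimer to the endosome, and the DM dimer of H2-DMa with H2-DMb1 or H2-DMb2 exchanges the last invariant chain fragment for antigen. Ciita, the class II transactivator, is recruited to a shared promoter module of these genes, known as the X and Y boxes, and is the usual switch for all of them. Dendritic cells and B cells carry class II constitutively, macrophages in a variable manner that interferon gamma raises, and neutrophils, NK cells and mouse T cells carry little or none.

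The H2 members lie together on chromosome 17 in GRCm38, with H2-DMa at 34119541 to 34139101, H2-DMb2 at 34143307 to 34151555, H2-DMb1 at 34153072 to 34160230, H2-Ab1 at 34257689 to 34269419, H2-Aa at 34282744 to 34287823 on the minus strand and H2-Eb1 at 34305867 to 34316674. Ciita lies on chromosome 16 at 10480059 to 10528418 and Cd74 on a further chromosome. Upstream sequences from RefSeq (GRCm38.p6) matched 5 of the 8 members, and the bases before the start sites of 4 of them are shown because the module that Ciita acts through can be read in them. Capitals mark the letters GATTGG, which are the core of the Y box, and GATGATG or GACGTC, which lie where the X box is placed. Letters in capitals as CCAATC are GATTGG on the opposite strand. The H2-DMb1 stretch holds only the last 5 letters of its GATGATG, and each line reads 5′ to 3′ on the strand of the gene. The RefSeq start sites used for H2-DMb1 and H2-DMb2 lie inside the wider gene spans given above, so both stretches fall within those spans.
H2-Aa, chr17:34287824-34287973, minus strand: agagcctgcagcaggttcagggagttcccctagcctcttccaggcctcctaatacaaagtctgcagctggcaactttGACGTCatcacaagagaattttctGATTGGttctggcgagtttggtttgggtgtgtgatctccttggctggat
H2-Eb1, chr17:34305717-34305866, plus strand: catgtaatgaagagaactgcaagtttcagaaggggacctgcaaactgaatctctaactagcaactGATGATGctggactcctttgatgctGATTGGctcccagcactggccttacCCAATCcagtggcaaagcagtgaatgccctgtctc
H2-DMb2, chr17:34145099-34145235, plus strand: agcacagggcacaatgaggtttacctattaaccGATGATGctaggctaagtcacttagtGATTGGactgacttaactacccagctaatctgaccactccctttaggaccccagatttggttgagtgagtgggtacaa
H2-DMb1, chr17:34153105-34153134, plus strand: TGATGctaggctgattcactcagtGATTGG
In each of these 4 genes the first letters began 24 to 26 bases before GATTGG on the same strand. The pair, searched on both strands at a spacing of 20 to 30 bases, occurred in 27 of 32851 upstream entries (0.0822%), whereas GATTGG alone occurred in 14.6%, GATGATG in 2.92% and GACGTC, which reads alike on both strands, in 3.77%. H2-DMa had 2 entries, neither of which held the pair. The letters were chosen after reading the members' own sequences, and a match describes the sequence without showing that a factor binds there. The 30-base stretches of H2-DMb1 and H2-DMb2 that end in GATTGG were alike at 27 bases and differed at 3. The coding genes are near-identical copies as well, so the assignment of UMIs between H2-DMb1 and H2-DMb2 is uncertain.

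The 3 tables held 58473 cells under 40 cell type labels given by the authors for each condition, of which 23781 cells lay under 14 immune labels. The libraries held 15469018 to 64784216 UMIs, and 366 of 58107 barcodes occurred in more than 1 library. Immune labels took 5.15% and 11.8% of the cells in the WT mice, 42.5%, 48.3% and 37.2% in i4F 1 to 3, and 56.9% and 45.9% in the caerulein mice. The library of i4F 3 stood apart, with 183 cells labelled Macrophages_1 against 2921 in i4F 1 and 2735 in i4F 2, and results that rest on it are given with and without it. It held 2071 Acinar_1 cells against 11 and 61, and 113 Activated_Pancreatic_Stellate_1 cells against 4249 and 2555. It also held 1290 B_lymphocytes cells against 453 and 343. Its median depth was 1248.5 UMIs per cell, against 4247 in i4F 1 and 2512.5 in i4F 2. Several labels went against markers. The caerulein label B_lymphocytes was led by H2-Aa, H2-Eb1, H2-Ab1 and Cd74, followed by the immunoglobulin genes Igkc and Ighm. Cd79a, a component of the B cell receptor, lay in 3.2% of its 1392 cells. Macrophages_2 of the i4F mice and Macrophages_3 of the caerulein mice were led by the neutrophil genes S100a9 and S100a8. Macrophages_2 of the WT mice and Macrophages_3 of the i4F mice were led by class II genes together with Ccr7, a gene of migrating dendritic cells. The leading genes of that WT label also held Il1b and the monocyte gene Chil3, both ahead of Ccr7. The names below are therefore those of the authors' labels and not verified cell types.

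Because the class II genes themselves could have taken part in the clustering behind the labels, macrophage-type cells were also selected without them, as cells of any immune label with at least 5 UMIs of the complement genes C1qa, C1qb and C1qc together. This gave 46 and 403 cells in the WT mice, 2505, 1515 and 234 in i4F 1 to 3, and 5635 and 2017 in the caerulein mice. In these cells H2-Aa, H2-Ab1, H2-Eb1 and Cd74 were high in i4F 3 and the WT mice and low in i4F 1, i4F 2 and both caerulein mice. Cells with at least 10 UMIs of H2-Aa, H2-Ab1, H2-Eb1 and Cd74 together made up 89.1% and 78.4% of them in the WT mice, 6.55%, 5.68% and 76.1% in i4F 1 to 3, and 8.93% and 6.00% in the caerulein mice. No WT mouse overlapped with i4F 1, i4F 2 or a caerulein mouse, and i4F 3 lay just under WT 2. Of the C1q cells of i4F 3, 130 of 234 lay under the class II-led label Macrophages_3, and all of these held at least 10. Under Macrophages_1 the share was 40.4% in i4F 3, 3.55% and 3.71% in i4F 1 and 2, and 88.6% and 78.3% in the WT mice. When each cell of at least 1000 UMIs was thinned to 1000, a UMI of H2-Ab1 was found in 79.4% and 78.3% of the WT cells, 6.08%, 4.42% and 70.1% of the i4F cells and 7.29% and 7.14% of the caerulein cells. The WT mice and i4F 3 thus lay apart from the other 4 mice at equal depth as well. In the NK and T labels, cells that should lack the gene, the thinned share of H2-Ab1 was 0.493% and 3.22% in the WT mice and at most 2.51% in the i4F mice, with median depths of 760 to 2248 UMIs against 1943 to 5390 in the C1q cells. Requiring at least 10 C1q UMIs left the share at 88.4% and 80.5% for WT 1 and 2, 6.38%, 5.40% and 77.3% for i4F 1 to 3, and 9.09% and 6.04% in the caerulein mice.

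**Figure D1:**
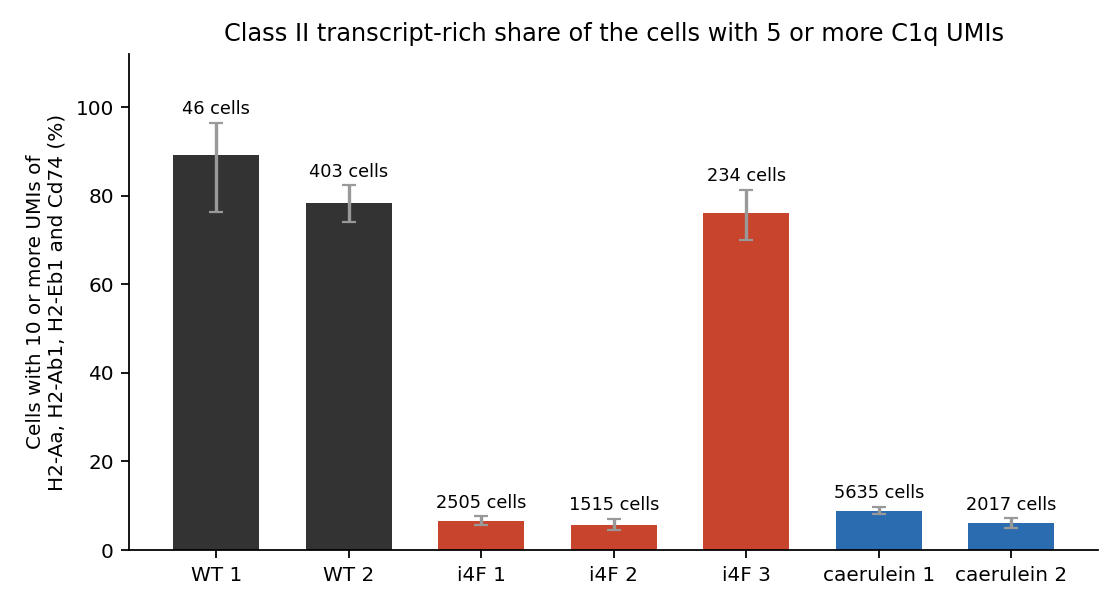
Share (%) of the immune-labelled cells with 5 or more C1q UMIs that held 10 or more UMIs of H2-Aa, H2-Ab1, H2-Eb1 and Cd74 together, 1 bar per mouse, with 95% exact binomial intervals that cover counting error only. The WT mice and i4F 3 lie between 76.1% and 89.1%, and the other 4 mice between 5.68% and 8.93%.

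Levels in the C1q cells are given as CPM, the usual scaled count of a gene's UMIs relative to all UMIs summed over the cells of a mouse. H2-Ab1, the beta chain of I-A, was at 8182 and 7091 CPM in the WT mice, 222, 121 and 3871 CPM in i4F 1 to 3, and 254 and 192 CPM in the caerulein mice. Its partner H2-Aa was at 10656 and 9296 CPM in the WT mice, 225, 130.0 and 4550.2 CPM in the i4F mice, and 270.3 and 199 CPM in the caerulein mice. H2-Eb1, the beta chain left without a partner in this strain, was at 8788 and 8686 CPM, then 218, 120.0 and 3959 CPM, then 250.3 and 171 CPM, in the same order of mice. All 3 chains were high in both WT mice and in i4F 3, and i4F 1, i4F 2 and the caerulein mice overlapped far below them. Cd74, the invariant chain, was at 26757 and 26761 CPM in the WT mice, 893, 545 and 14843 CPM in the i4F mice, and 1158 and 814 CPM in the caerulein mice, so that the WT mice and i4F 3 were high for it too.

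The DM chains load the peptide. H2-DMa was at 751 and 581 CPM in the WT mice, 86.8, 69.1 and 386 CPM in i4F 1 to 3, and 116 and 128 CPM in the caerulein mice. H2-DMb1 was at 596 and 602 CPM in the WT mice, 51.9, 45.0 and 291 CPM in the i4F mice, and 68.3 and 59.8 CPM in the caerulein mice. For H2-DMa and H2-DMb1 both WT mice lay above every other mouse, and the share of all genes that did so was not computed. H2-DMb2 was low throughout, at 29.6 and 3.0 CPM in the WT mice, 2.6, 1.8 and 11.9 CPM in the i4F mice and 1.6 and 1.4 CPM in the caerulein mice, on 3 to 32 UMIs per mouse. Ciita, the transactivator, was at 69.2 and 79.6 CPM in the WT mice, 1.0, 0 and 16.7 CPM in the i4F mice, and 0.8 and 2.1 CPM in the caerulein mice. The 0 of i4F 2 stands for no UMI among 4976941, which allows up to 0.603 CPM at 3 counts. Ciita thus lay above 60 CPM in both WT mice and below 20 CPM in the other 5. For Ciita and the alpha and beta chains, too, the share of all genes with such an order was not computed.

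**Figure D2:**
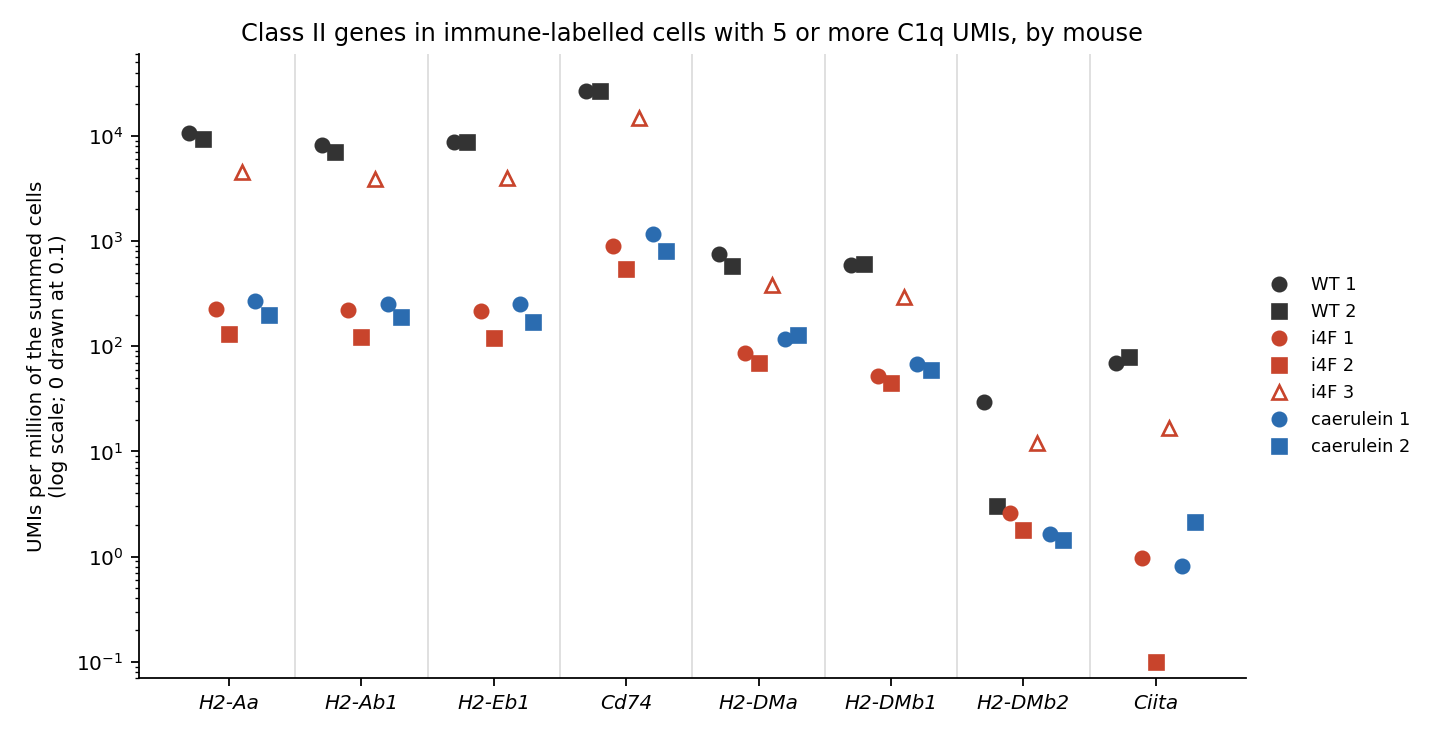
Level of each class II gene (CPM, log scale, 0 drawn at 0.1) in immune-labelled cells with 5 or more C1q UMIs, 1 point per mouse. For each gene except H2-DMb2 the 2 WT mice lie highest, i4F 3 (open triangle) lies next, and i4F 1, i4F 2 and the caerulein mice lie lower, with Cd74 from 26761 CPM in WT 2 to 545 CPM in i4F 2. The share of all genes with this order was not computed.

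The counts summed per mouse were tested with edgeR's quasi-likelihood test, with Benjamini-Hochberg adjustment over all genes tested and the spread shared by all 7 mice. P-values measure the spread between mice, and both contrasts below use the same 2 WT mice. In the C1q cells all 8 members had a negative log2 fold change in i4F and in caerulein mice against WT mice, with medians of -2.23 and -4.87 against 0.02 and -0.01 over all genes. Against WT mice, caerulein mice passed the test for 2 of 8 members, H2-DMb1 (log2 fold change -3.17, SE 0.83, adjusted p = 0.0498) and Ciita (-5.93, SE 1.15, adjusted p = 0.0235), where 8.11% of 11664 genes passed. Cd74 gave -4.70 (SE 1.44, adjusted p = 0.0752) in the same contrast, where all 8 members and 27.1% of genes stood at an unadjusted p under 0.05 and DESeq2 called 3 members and 10.3% of genes. Ciita met the low-count filter only because it was high in the WT mice, here and under the macrophage labels below, so its calls and its part in the counts of members called describe its levels and support nothing further. The i4F contrast passed for 0 of 8 members with edgeR, against 0.0343% of genes, with 3 members and 24% of genes at an unadjusted p under 0.05, and DESeq2 called 1 member and 5.5% of genes. Without i4F 3, 7 members were lower in i4F mice, where 11.7% of genes passed, with Cd74 at -5.10 (SE 0.40, adjusted p = 0.000496) and H2-Aa at -5.69 (SE 0.40, adjusted p = 0.000330). Without i4F 3, 7 members were also lower in caerulein mice (13.5% of genes passed), and H2-DMb2 passed in neither. Without WT 2, either caerulein mouse or i4F 1, 0 members were called in the caerulein contrast (at most 3.22% of genes), without WT 1 it was 1 (8.22%), and without i4F 2 it was 5 (5.75%). Between i4F and caerulein mice 0 of 8 members passed with edgeR (4.12% of genes) and 0 with DESeq2 (5.91%), and members at an unadjusted p under 0.05 numbered 0 (22.4% of genes).

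The macrophage labels whose own leading genes held macrophage markers gave a wider gap. These were Macrophages_1 of the WT and i4F mice and Macrophages_1 and Macrophages_2 of the caerulein mice, a choice made after seeing the data. Class II genes could have taken part in forming the labels. They also bore on the choice, because they filled leading places of WT Macrophages_2 and i4F Macrophages_3, which were left out. WT Macrophages_1, also high in class II genes, was kept. The calls under the chosen labels therefore describe levels and are no independent support. Their first genes differed, being C1qb, Ccl4 and C1qa in WT mice and Chil3, Arg1 and Pf4 in i4F mice. In caerulein mice they were Apoe, Syngr1 and Gpnmb in Macrophages_1 and Ccl4, Ccl6 and Mrc1 in Macrophages_2. The contrasts may therefore compare unlike macrophage populations. Cd74 was at 25989 and 26572 CPM in the WT mice, 257, 228 and 2176 CPM in i4F 1 to 3, and 391 and 318 CPM in the caerulein mice. H2-Ab1 was at 7863 and 7069 CPM, then 39.5, 36.4 and 362 CPM, then 52.9 and 52.8 CPM, in the same order. Under these labels i4F 3 was still the highest mouse outside the WT group. With edgeR, 7 of 8 members were lower in i4F than in WT mice, where 6.08% of 12272 genes passed, and 7 of 8 in caerulein than in WT mice, where 9.44% passed. H2-DMb2, at 0 to 6.0 CPM, did not pass in either (adjusted p = 0.338 and 0.106). Over all macrophage labels as named, which include the class II-led and neutrophil-led ones, 4 members were lower in caerulein mice (5.66% of genes passed), and 0 passed in i4F mice (0.00828%), with 2 members and 19.9% of genes at an unadjusted p under 0.05. There 0 passed between i4F and caerulein mice (1.67%), with 6 members and 22.2% of genes at an unadjusted p under 0.05, and DESeq2 called 5 members and 8.98% of genes. In the i4F contrast of the marker-led labels the log2 fold change was -4.85 for Cd74 (SE 0.83, adjusted p = 0.0172), -5.72 for H2-Ab1 (SE 0.87, adjusted p = 0.0150) and -2.58 for H2-DMa (SE 0.40, adjusted p = 0.0157). In the caerulein contrast it was -6.10 for Cd74 (SE 1.05, adjusted p = 0.0104), -7.03 for H2-Ab1 (SE 1.09, adjusted p = 0.00888) and -2.38 for H2-DMa (SE 0.45, adjusted p = 0.0140). Without i4F 3 the i4F contrast gave -6.60 for Cd74 (SE 0.34), -7.45 for H2-Ab1 (SE 0.31) and -3.14 for H2-DMa (SE 0.25), and the caerulein contrast gave -6.12, -7.06 and -2.40 for the same genes.

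Ciita was at 67.6 and 82.5 CPM under those macrophage labels of the WT mice, on 19 and 83 UMIs. It was at 0.2, 0 and 6.2 CPM in i4F 1 to 3, on 2, 0 and 3 UMIs, and at 0.2 CPM in both caerulein mice, on 4 and 1 UMIs. The 0 of i4F 2 allows up to 0.407 CPM at 3 counts. No mouse outside the WT group came near the WT level. Ciita is 1 of the 7 members counted as lower in each contrast (adjusted p = 0.00436 and 0.00201, edgeR), and as it entered the test through the WT mice, that call is no support. The calls rested on few mice. Without i4F 1 the i4F contrast called 0 members (0.00928% of genes) and without WT 2 it called 1 (0.0599%), whereas without i4F 3 it called 7 (11.6%). The caerulein contrast called 0 members without caerulein 1 (0.173% of genes), 1 without caerulein 2 (0.126%) and 3 without WT 2 (0.464%). With the library name series (AL or AM in the titles) as a term the i4F contrast called 0 (0% of genes), a fit that rests on the WT mice, 1 in each series, because all i4F libraries were AL and both caerulein libraries AM. Between i4F and caerulein mice 0 of 8 members passed under these labels, where 6.98% of genes did, with 0 calls by DESeq2 (5.22%).

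H2-DMa kept a larger part of its WT level than the alpha and beta chains under these labels, and so did H2-DMb1. Without i4F 3 the log2 fold change of H2-DMb1 was -3.82 in the i4F and -3.63 in the caerulein contrast. For H2-Ab1 it was -7.45 and -7.06, and for H2-DMa -3.14 and -2.40. H2-DMa made up 8.4% and 7.7% of the UMIs of H2-DMa and H2-Ab1 together in Macrophages_1 of the WT mice. The share was 65.2%, 61.4% and 34.6% in Macrophages_1 of i4F 1 to 3 and 73.5% and 72.6% in Macrophages_1 of the caerulein mice. Every i4F and caerulein mouse lay above both WT mice. In cells with 5 or more C1q UMIs the share was 8.4% and 7.6% for WT 1 and 2, 28.1%, 36.3% and 9.1% for i4F 1 to 3, and 31.4% and 40.0% in the caerulein mice. In this set i4F 3 lay near the WT mice, but 55.6% of its cells there came from the class II-led label Macrophages_3.

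In the i4F and caerulein pancreas high class II levels lay under other labels. Under Macrophages_3 of the i4F mice, Cd74 was at 33559, 21314 and 30945 CPM and H2-Ab1 at 11098, 6267 and 9112 CPM. This label had 215, 87 and 282 cells, and 97.7%, 95.4% and 98.2% of them held at least 10 class II UMIs. All 3 mice lay below Macrophages_2 of both WT mice, where Cd74 was at 38033 and 43284 CPM and H2-Ab1 at 15358 and 12646 CPM. Of the C1q cells of i4F 3, 55.6% lay under Macrophages_3, against 2.75% and 1.65% in i4F 1 and i4F 2. In the caerulein mice the label B_lymphocytes had the highest levels, with Cd74 at 25418 and 22318 CPM, H2-Ab1 at 7072 and 7547 CPM and H2-Aa at 7645 and 7147 CPM. It held 800 of the 1139 immune cells of caerulein 1 with at least 10 class II UMIs and 317 of the 375 of caerulein 2, and the macrophage labels held the other 339 and 58. Of the C1q cells with at least 10 class II UMIs, it held 217 of 503 and 74 of 121. The neutrophil-led labels were low, with Cd74 at 357, 221 and 74.7 CPM in the i4F mice and 297 and 374 CPM in the caerulein mice. The label Follicular_B_lymphocytes of the i4F mice, led by immunoglobulin genes and Jchain of plasma cells, held Cd74 at 5403, 2395 and 4340 CPM with no Ciita UMI in 24, 27 and 67 cells. The NK and T labels were at 33 to 154 CPM of Cd74 in the WT and i4F mice, and the caerulein table had no such label.

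**Figure D3:**
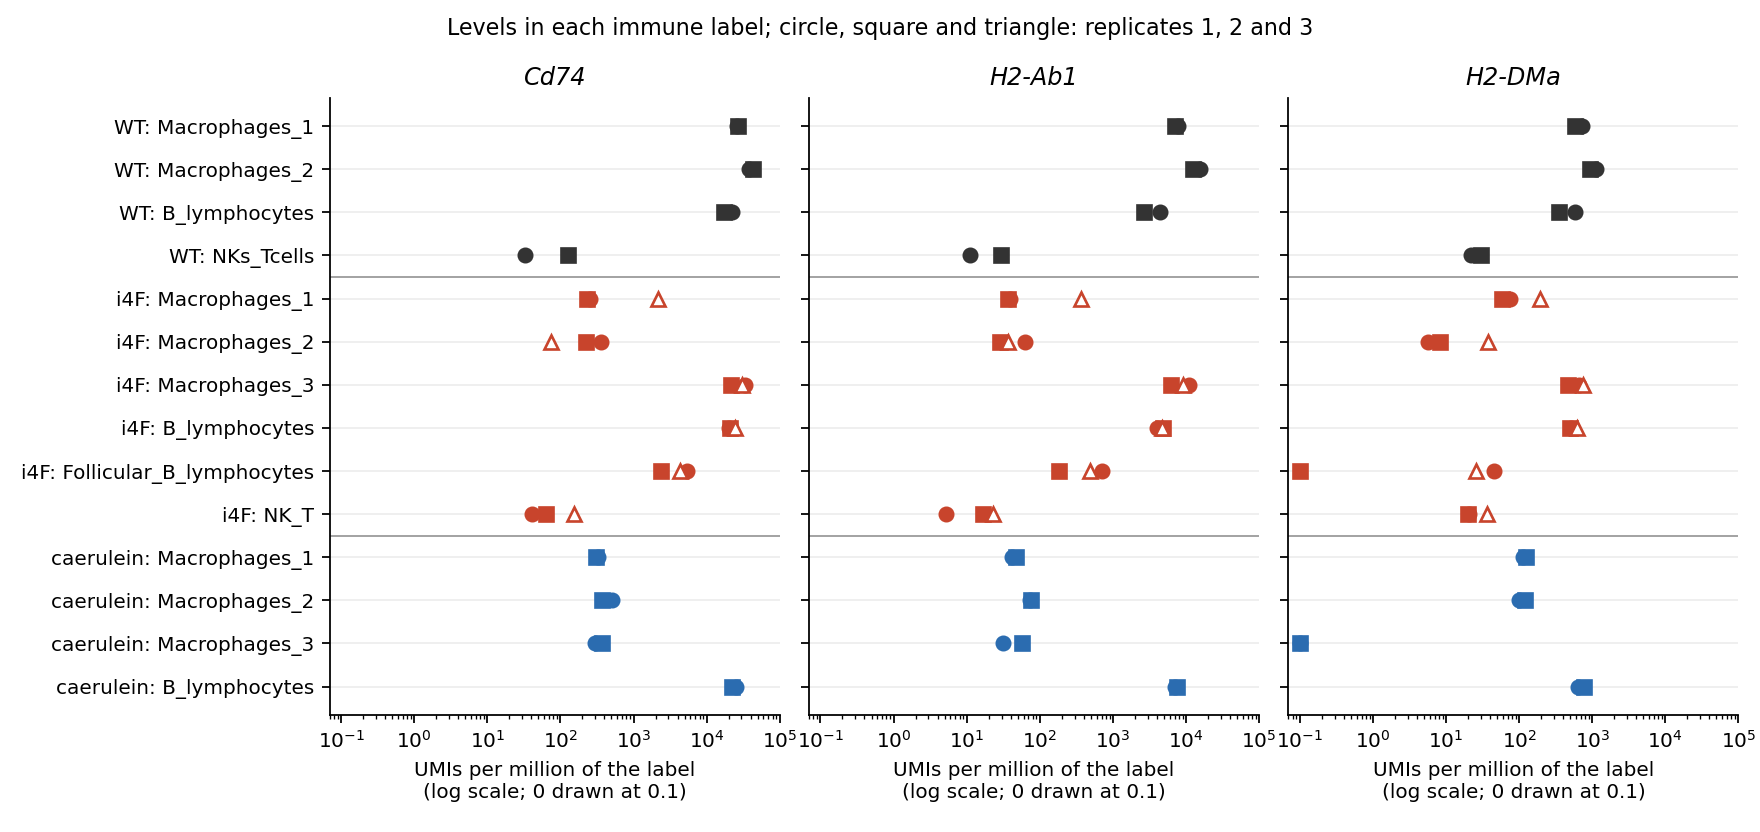
Level (CPM of the label, log scale, 0 drawn at 0.1) of Cd74, H2-Ab1 and H2-DMa under each immune label, 1 point per mouse. The 2 WT macrophage labels, the B_lymphocytes labels and i4F Macrophages_3 lie between 17237 and 43284 CPM of Cd74, and the other macrophage labels lie at or below 2176 CPM.

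The source of the class II UMIs therefore differed between conditions. Of the Cd74 UMIs of a library, 93.2% to 97.0% came from immune labels in each of the 7 mice. The macrophage labels held 77.4% and 84.1% of the Cd74 UMIs in the WT mice, 65.9%, 55.3% and 39.4% in i4F 1 to 3, and 10.7% and 10.96% in the caerulein mice. The B lymphocyte labels held 17.2% and 12.9% for WT 1 and 2, 27.2%, 39.3% and 55.5% for i4F 1 to 3, and 85.8% and 84.5% in the caerulein mice. The mice of the 3 groups did not overlap in either share, and H2-Ab1 had the same order, with 84.8% and 89.1%, then 74.4%, 59.0% and 50.1%, then 5.56% and 5.78% from macrophage labels. These shares follow how the authors named the clusters as well as what the cells held.

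**Figure D4:**
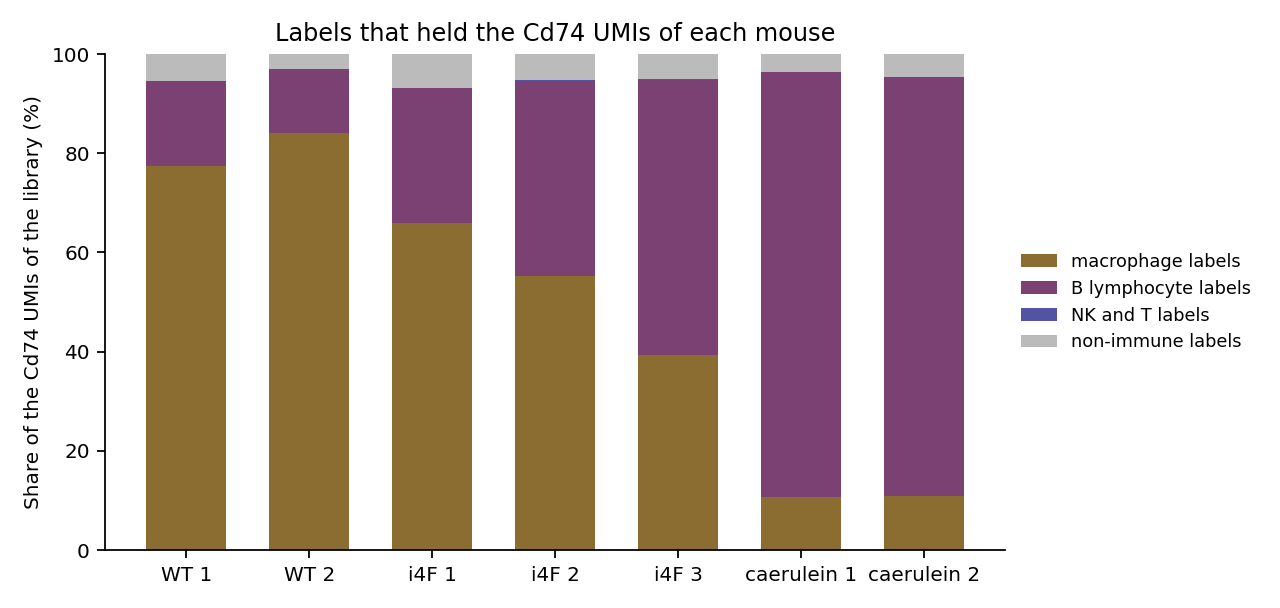
Share (%) of the Cd74 UMIs of each library that lay under macrophage, B lymphocyte, NK and T, and non-immune labels, 1 stacked bar per mouse. Macrophage labels held 77.4% and 84.1% for WT 1 and 2 against 10.7% and 10.96% for the caerulein mice, where the B lymphocyte label held most.

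The split of UMIs between the DM beta genes, whose assignment is uncertain as said above, separated the B_lymphocytes labels. The 10 leading genes of B_lymphocytes held 4 B cell markers in the i4F mice, and 2 B cell and 2 plasma cell markers in the WT mice. H2-DMb2 made up 85.4% and 76.3% of the H2-DMb1 and H2-DMb2 UMIs in the WT B_lymphocytes and 74.1%, 73.2% and 79.2% in those of i4F 1 to 3. It made up 9.4% and 6.8% under the caerulein B_lymphocytes, below the 17.3% and 16.5% of WT Macrophages_2 and the 20.6%, 19.1% and 25.5% of i4F Macrophages_3. Under Macrophages_1 it was 0% and 1.0% in the WT mice, at most 4.4% in the i4F mice and at most 1.9% in the caerulein mice, lower than under the caerulein B_lymphocytes. The B_lymphocytes labels of WT and i4F mice did not overlap with any other label here. Within the caerulein label, cells with none of the 5 listed B cell markers and at least 1 dendritic cell marker (492 and 136 cells) held Cd74 at 31897 and 26790 CPM, H2-DMb1 at 1059 and 960.2 CPM and H2-DMb2 at 128 and 76.7 CPM. All its cells with none of the 5 (894 and 359 cells) held Cd74 at 26184 and 22775 CPM. In the whole label the listed macrophage markers lay in 8.84% (Mrc1) to 49.1% (Cd68) of cells. The dendritic cell markers lay in 1.80% (Zbtb46) to 13.6% (Clec10a), so the subset does not name the label. Cells of that label with at least 2 B cell markers numbered 31 and 14 and held Cd74 at 12531 and 22292 CPM.

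**Figure D5:**
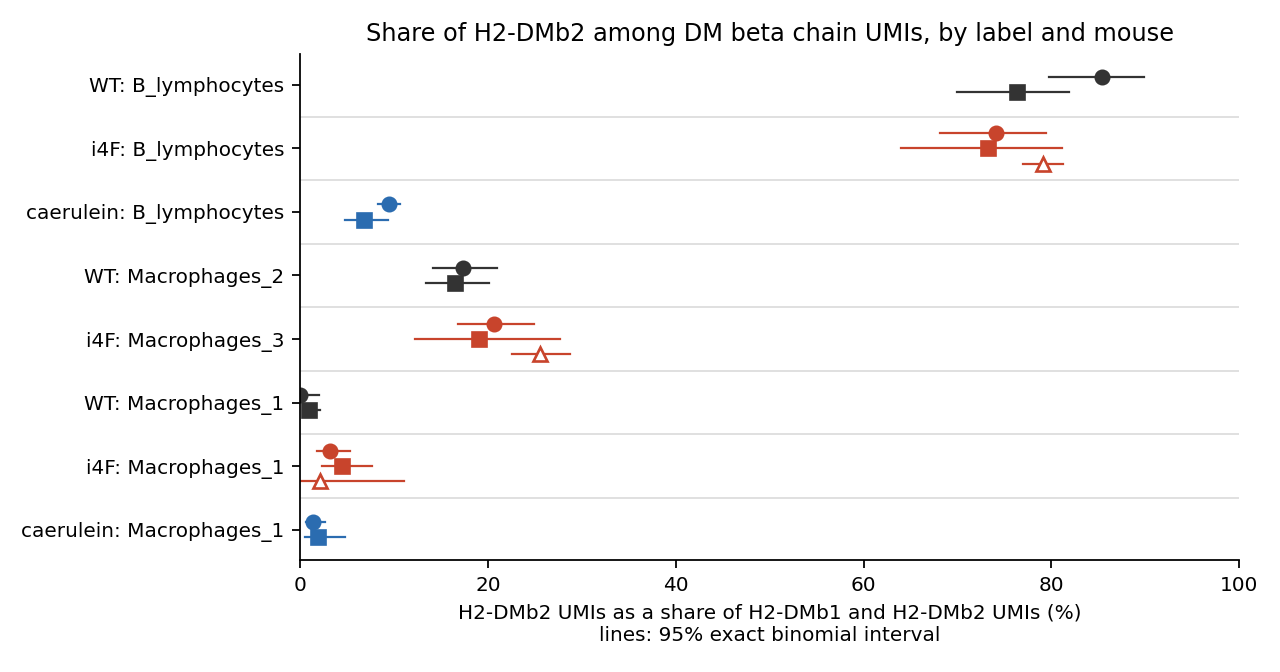
H2-DMb2 UMIs as a share (%) of the UMIs of H2-DMb1 and H2-DMb2 under 8 immune labels, 1 point per mouse with a 95% exact binomial interval that covers counting error only. The WT and i4F B_lymphocytes labels lie between 73.2% and 85.4%, and the caerulein label of that name lies at 9.4% and 6.8%.

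Between i4F and WT mice the levels of Cd74 and H2-Ab1 under B_lymphocytes overlapped. Plasma cell genes stood among the leading genes of the WT label, but led the separate label Follicular_B_lymphocytes in i4F mice. The compared labels may therefore hold unlike cells. In B_lymphocytes Cd74 was at 22007 and 17237 CPM in the WT mice against 20418, 20897 and 24750 CPM in the i4F mice, and these ranges overlapped. H2-Ab1 was at 4475 and 2683 CPM in the WT mice against 4044, 4800 and 4663 CPM in the i4F mice, again with overlap. Over the B_lymphocytes labels alone edgeR called 0 of 8 members, where 0.447% of 4923 genes passed, and DESeq2 called 0 (1.2%). Over all B lymphocyte labels edgeR also called 0 of 8 in this contrast, with 0.0156% of genes called. In that fit Cd74 gave a log2 fold change of -0.21 (SE 0.23, adjusted p = 0.811). In the caerulein contrast over B lymphocyte labels, H2-DMb1 was higher (2.40, SE 0.29, adjusted p = 0.00155) and H2-DMb2 lower (-3.24, SE 0.48, adjusted p = 0.00347), where 16.4% of genes passed. Between i4F and caerulein mice 4 of 8 members passed, H2-DMb2 being higher and H2-DMb1, H2-Ab1 and H2-Eb1 lower in i4F mice, where 28.8% of genes did. In these last contrasts the caerulein label held none of the listed B cell markers among its leading genes, unlike B_lymphocytes of the other mice. With the library name series as a term the caerulein contrast still called 2 members (7.55% of genes) and that between i4F and caerulein mice called 0 (0.638%).

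Summed over all immune labels, each of the 8 members was highest in the WT mice or in i4F 3. Cd74 was at 24894 and 25510 CPM in the WT mice, 2867, 1293 and 15471 CPM in i4F 1 to 3, and 3133 and 2496 CPM in the caerulein mice. H2-DMb2, the DM beta gene that prevailed in the B_lymphocytes labels of the WT and i4F mice, was at 248 and 118 CPM in the WT mice, 24.9, 13.9 and 264 CPM in the i4F mice and 10.3 and 6.6 CPM in the caerulein mice. In such sums fewer class II-high cells and less RNA per cell cannot be told apart. Median log2 fold changes of the members were -2.05 in the i4F and -3.08 in the caerulein contrast, against 0.05 and 0.01 over all genes. The i4F contrast called 0 of 8 members with edgeR (0% of 12999 genes), 4 stood at an unadjusted p under 0.05 (11.7% of genes) and DESeq2 called 1 (1.98%). The caerulein contrast called 0 of 8 (0% of genes), 7 stood at an unadjusted p under 0.05 (24.1% of genes) and DESeq2 called 7 (11.1%). Between i4F and caerulein mice 0 of 8 passed (0.00769% of genes), 1 stood at an unadjusted p under 0.05 (18.0% of genes) and DESeq2 called 1 (7.1%). Without i4F 3 all 8 members were lower in both contrasts, where 17.6% and 23.2% of genes passed, with Cd74 at -3.39 (SE 0.43, adjusted p = 0.00486) in i4F and -3.004 (SE 0.42, adjusted p = 0.00468) in caerulein mice.

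Under non-immune labels the class II genes were low. Cd74 was at 94.2 and 89.4 CPM in the WT mice, 49.2, 20.9 and 405 CPM in i4F 1 to 3, and 71.0 and 59.6 CPM in the caerulein mice. The i4F mice lay on both sides of the others, and i4F 3 was highest. H2-DMb2 and Ciita were too low to be tested, and 0 of the 6 members tested passed in any contrast (0%, 0.0728% and 0% of genes for i4F against WT, caerulein against WT and i4F against caerulein), with 0 at an unadjusted p under 0.05 (31.4%, 33.4% and 11.3% of genes) and 0 calls by DESeq2 (17.4%, 20.7% and 3.11%). These values rest on i4F 3. With it, the median log2 fold change of the 6 members in the i4F contrast was 0.89. Without it all 6 were negative, with Cd74 at -0.99 (SE 0.38), and H2-Ab1 (-1.18, SE 0.42, adjusted p = 0.0490) and H2-DMb1 (-1.01, SE 0.31, adjusted p = 0.0296) passed as lower, where 51.6% of genes passed. Without i4F 3, H2-DMa was also higher in caerulein than in WT mice (1.25, SE 0.30, adjusted p = 0.0161), where 43.0% of genes passed, and lower in i4F than in caerulein mice (8.67% of genes). A test of the difference itself, immune minus non-immune labels within the mouse, was passed by 7 of 8 members in the i4F contrast (0.614% of 17913 genes) and by 7 of 8 in the caerulein contrast (2.26%). Cd74 gave -2.55 (SE 0.37, adjusted p = 0.0345) and -2.79 (SE 0.40, adjusted p = 0.0108), and Ciita did not pass (adjusted p = 0.279 and 0.195). The 7 were the 6 members tested under non-immune labels and H2-DMb2, which was too low there to be tested and entered this test only through the immune labels. Between i4F and caerulein mice 0 of 8 passed this test (0.0837% of genes), with 0 at an unadjusted p under 0.05 (10.4% of genes). This difference lost its calls when WT 1 or caerulein 1 was left out (0 members in either contrast, at most 0.0729% of genes). Without WT 2, caerulein 2 or i4F 2 it called 1 member in the i4F contrast (0.293%, 0.0509% and 0.0622% of genes), and without WT 2 or caerulein 2 it called 2 and 1 in the caerulein contrast (0.936% and 0.575%). Without i4F 3 it called 7 members in the i4F contrast (22.4% of genes) and 8 in the caerulein contrast (19.3%).

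Mesothelium, the lining of the organ, was the 1 non-immune label with Cd74 above 300 CPM in both WT mice. There Cd74 was at 393 and 354 CPM and H2-Ab1 at 81.5 and 137 CPM, on 100 and 94 cells. The UMIs of H2-Aa, H2-Ab1, H2-Eb1 and Cd74 were 199 and 123 times as many as those of 7 pan-leukocyte genes such as Ptprc and Tyrobp in this label, against 4.04 and 3.75 times in the immune labels of the same mice. These ratios rest on 398 and 369 class II UMIs against 2 and 3 leukocyte UMIs. Cells with at least 10 of these class II UMIs numbered 6 and 15 in the mesothelium, and 0 and 2 of them held a leukocyte UMI. Those few cells carried 80.9% and 77.8% of the class II UMIs of the label. Under Activated_Pancreatic_Stellate_2 of the i4F mice, cells with at least 2 of the mesothelial genes Upk3b, Msln, Lgals7, Nkain4 and Upk1b held Cd74 at 560, 181 and 815 CPM, against 163, 44.8 and 654 CPM in cells with none. The 163 and 44.8 CPM rest on 9 and 4 UMIs in 28 and 47 cells, at median depths of 1366 and 1428 UMIs against 5578 and 5289.5. Of the cells of this label with at least 10 class II UMIs, 12 of 24, 2 of 3 and 42 of 62 held a leukocyte UMI in i4F 1 to 3. In the caerulein mice the mesothelium label held Cd74 at 169 and 691 CPM, and its class II UMIs were 0.29 and 82.5 times the leukocyte UMIs, so these mice lay on both sides of 1.

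Endothelial labels of WT 1 held 560 CPM of those 4 genes together, 21.0 times their leukocyte UMIs, but WT 2 held 178 CPM at 2.36 times, so the WT mice differed. The level was 368, 162 and 1106 CPM for i4F 1 to 3, at 0.509, 0.247 and 3.99 times, and 265 and 673 CPM for the caerulein mice, at 0.0453 and 0.155 times, so i4F 3 held the most and WT 1 had the highest ratio. In WT 1, 28 endothelial cells held at least 10 class II UMIs and 1 of them held a leukocyte UMI. Of these 28, 12 lay under Endothelial_2, at a median depth of 323.5 UMIs. In the other mice a leukocyte UMI was held by 4 of 6 such cells in WT 2, and by 4 of 4, 2 of 3 and 7 of 16 in i4F 1 to 3. It was held by 8 of 8 and 2 of 2 in the caerulein mice. Ductal labels held Cd74 more often in the caerulein than in the WT mice. After thinning to 1000 UMIs, Cd74 was found in 16.2% and 11.7% of the caerulein ductal cells and H2-Ab1 in 1.06% and 1.45%. In the WT mice the same shares were 4.74% and 4.50% for Cd74 and 1.92% and 0.98% for H2-Ab1, and acinar cells of the caerulein mice held Cd74 in 4.02% and 2.30%. The caerulein ductal cells therefore lay above both WT mice for Cd74 and within the WT range for H2-Ab1. The i4F ductal cells held Cd74 in 2.72%, 1.99% and 9.46%, i4F 3 again being the highest. The 7 pan-leukocyte genes were also higher in the caerulein than in the WT mice, at 6.24 and 44.4 CPM in the ductal labels of WT 1 and 2, 690.2, 365 and 168 CPM for i4F 1 to 3 and 1225 and 926 CPM for the caerulein mice, and their part in the Cd74 shares was not tested. Class II UMIs were 24.6 and 5.48 times the leukocyte UMIs in the WT ductal labels, against 0.20 and 0.397 times under caerulein and 0.0905, 0.0878 and 3.34 times for i4F 1 to 3. In acinar, ductal, stellate and endothelial labels edgeR called 0 members in any contrast, where 0.0808%, 0.00861%, 20.6% and 0.81% of genes passed for i4F against WT and 0.0359%, 3.53%, 17.1% and 4.11% for caerulein against WT. Between i4F and caerulein mice the shares were 0.126%, 0.387%, 0.459% and 0.601%. At an unadjusted p under 0.05 stood 1 member, H2-DMa in stellate labels of the i4F contrast, where 40.8% of genes did. DESeq2 called 1 member in stellate labels for i4F against WT (26.7% of genes) and 1 for caerulein against WT (24.8%). It called 0 between i4F and caerulein mice, a count for which the share of all genes is not given here.

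Among 31 listed genes of the class II pathway, 26 were tested under the macrophage labels led by macrophage markers, and values here are CPM after TMM scaling. In the i4F contrast 3 were higher and 1 lower (15.4% of the 26, against 6.08% of all genes), and in the caerulein contrast 3 were higher and 4 lower (26.9%, against 9.44%). Median log2 fold changes were 0.08 and 0.13, against 0.05 and 0.04 over all genes. Ctsd, an endosomal protease, was at 1653 and 1269 CPM in the WT mice, 5543, 3009 and 2789 CPM in the i4F mice and 9706 and 11317 CPM in the caerulein mice, and passed in both contrasts (1.37, SE 0.34, adjusted p = 0.0449 and 2.85, SE 0.38, adjusted p = 0.00712). Ctsl, which trims the invariant chain in some cells, also passed in both, and Ctsb passed in caerulein mice (1.65, SE 0.32, adjusted p = 0.0156) and not in i4F mice (0.69, SE 0.29, adjusted p = 0.176). Ctss, the main invariant chain protease of antigen-presenting cells, did not pass (0.51 and 0.41, adjusted p = 0.358 and 0.499), nor did the thiol reductase gene Ifi30 (0.98 and 1.16, adjusted p = 0.0878 and 0.0581). Irf1, an interferon-responsive factor that acts upstream of Ciita, was at 111 and 163 CPM in the WT mice, 48.9, 39.9 and 53.4 CPM in the i4F mice and 38.8 and 38.1 CPM in the caerulein mice, and was lower in both contrasts (-1.59, SE 0.25, adjusted p = 0.0157 and -1.87, SE 0.27, adjusted p = 0.00820). Jak2 was higher in i4F mice (2.17, SE 0.32, adjusted p = 0.0123). In caerulein mice Cd86, a co-stimulatory ligand, was lower (-2.03, SE 0.30, adjusted p = 0.00841), as was March1, whose product removes class II from the surface (-1.15, SE 0.30, adjusted p = 0.0411). H2-Ob of the DM inhibitor DO is also counted as lower there, at 6.7 and 3.8 CPM in the WT and 0.1 and 0.2 CPM in the caerulein mice (adjusted p = 0.0362), but it entered the test through the WT mice and i4F 3 alone, so that call is no support either. Its partner H2-Oa, at 0.2 to 6.7 CPM, did not pass (adjusted p = 0.306 and 0.147). Rfx5, a subunit of the X box factor, was at 3.0 to 6.6 CPM in all 7 mice and did not pass (adjusted p = 0.431 and 0.327). Under the NK and T labels Ifng, the main inducer of Ciita in macrophages, was at 418 and 394 CPM in the WT mice against 71.3, 66.1 and 73.0 CPM in the i4F mice (-2.52, SE 0.26, adjusted p = 0.00416), the only 1 of 16 listed genes to pass there, where 1.51% of genes did. The 5 NK cell markers, all detected in each mouse, summed to 4932 and 2482 CPM under these labels for WT 1 and 2 against 881, 469 and 832 CPM for i4F 1 to 3, and their part in the Ifng difference was not tested. The 4 T cell markers summed to 2080.0 and 2208 CPM against 1901, 1910.0 and 2627 CPM. Of the members only Cd74 could be tested under those labels and it was not called.

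Across 83 groups of cells, each a label in 1 mouse with at least 50 cells, H2-Aa and H2-Ab1 followed each other most closely on the log scale (r = 0.992), and H2-DMb1 and H2-DMb2 least (r = 0.741). Cd74 and Ciita gave r = 0.846. The groups share libraries, depth and mice, so these values describe the tables and carry no test. Among genes that are no members, those most like the mean of the members were Kmo (r = 0.869), Ryr1 (0.858), Rnase6 (0.852), Siglecg (0.851) and Wdfy4 (0.842), followed by Cd86, Gm15987, Cd180, Cd83 and Flt3 (0.830).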

How the data were processed

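Per the study's methods, the authors aligned the reads to GRCm38 (mm10) with Cell Ranger, merged the mice of a condition, applied SoupX to free RNA, filtered cells, clustered them in Seurat and named the clusters by hand. The deposited tables hold whole-number UMI counts per gene and cell with the authors' labels. Whether these counts precede the SoupX step is not given in the sources used here. Doublets were not removed. No per-sample columns were left unused (0).

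Counts were summed per mouse and cell class (at least 20 cells) and tested with edgeR 4.0.16 (quasi-likelihood, TMM, filterByExpr, adjusted p under 0.05, all groups in 1 fit) in R 4.3.3 with limma 3.58.1, with DESeq2 1.42.0 as an alternative and Python 3.11.15 for levels. Thinned shares used 1000 UMIs per cell. Intervals are 95% exact binomial and, like floors of 3 counts, cover counting error only. Tested on simulated data for i4F against WT immune labels (12440 genes), the fit recovered 60.6% of genes changed by 2 and 89.8% by 3 on the log2 scale. It made 1 false call in each setting, which was 0.671% of the genes scored for false calls, a set far smaller than the 12440 run. On the counts of the mice the same contrast called 0% of 12999 genes, so the simulated rates may not hold there.

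The 8 members are named always, the listed pathway genes where they passed (up to 8 per comparison) and Rfx5, H2-Oa, H2-Ob, Ctss and Ifi30 in any case, and the 10 genes most like the members are given. Members and lists were chosen with earlier results of these data known, and the C1q cells, marker-led classes and crossed block after seeing the data. Alternatives were scaling, filters, cell quality, non-immune cells without immune transcripts, library series, replicate block, 2 groups alone and leaving out each mouse.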

Additional observations from a re-analysis of the deposited data

Results flagged for a closer look

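The effect on 7 of the 8 class II genes differed between immune and non-immune labels of the same mice, by an edgeR test of the difference itself with Benjamini-Hochberg adjustment over 17913 genes. Ciita did not pass this edgeR test (adjusted p = 0.279 for i4F and 0.195 for caerulein against WT). For i4F against WT, the log2 effect in immune minus non-immune labels was -2.57 for H2-Aa (adjusted p = 0.0313), -2.52 for H2-Ab1 (0.0321), -2.76 for H2-Eb1 (0.0286), -2.44 for H2-DMa (0.0313), -1.98 for H2-DMb1 (0.0435), -5.06 for H2-DMb2 (0.0182) and -2.55 for Cd74 (0.0345). For caerulein against WT it was -2.36 for H2-Aa (adjusted p = 0.0190), -2.39 for H2-Ab1 (0.0175), -2.81 for H2-Eb1 (0.00820), -2.82 for H2-DMa (0.00746), -1.69 for H2-DMb1 (0.0490), -4.98 for H2-DMb2 (0.0130) and -2.79 for Cd74 (0.0108). H2-DMb2 was too low in non-immune labels (1 to 67 UMIs per mouse) to be tested there and entered only through the immune labels, so its values are a description. Immune cells made up 5.15% and 11.8% of the WT libraries and 37.2% to 56.9% of the others, and the 7 pan-leukocyte genes stood at 12.9 and 42.2 CPM in the non-immune labels of WT 1 and 2, 347, 299 and 230 CPM for i4F 1 to 3 and 1523 and 981 CPM for the caerulein mice. With non-immune cells that held an immune transcript left out, 0 of 6 members were called in any of the 3 contrasts of non-immune labels, as with them. The share of all genes called in those refits is not given here, so this count stands without its background. The difference between immune and non-immune labels was not refitted without those cells, and the part of free RNA in it was not tested. Its calls were lost or became fewer when some single mice were left out, as given above with the non-immune labels.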

How the results depend on the processing

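No count of called members above 0 turned direction under any alternative, and of 562 alternative counts 450 stayed within 1.5 times the reported one, 77 rose above it and 35 fell below it. Most reported counts were 0. Such a count was taken as unchanged when it stayed at 0 and could neither fall nor turn direction. The 450 therefore does not measure how robust the counts above 0 were. Of 530 values of single called members under an alternative, 375 kept sign and call, 155 kept the sign and lost the call, and 0 changed sign. Of 36 shares of cells compared under other thinning or none, 18 moved beyond 1 SD. The counts of called members are given below in the order i4F against WT, caerulein against WT, i4F against caerulein, with the share of all genes called in the same fit in brackets. With DESeq2 they were 1, 7 and 1 in immune labels (1.98%, 11.1% and 7.1% of genes), 7 and 5 in macrophage labels for the last 2 contrasts (13.7% and 8.98%), 1 and 1 in stellate labels for the first 2 (26.7% and 24.8%), and 1 in C1q cells for the first (5.5%). With no expression filter they were 7, 8 and 1 in immune labels (3.73%, 7.88% and 5.57%), 8, 8 and 8 in macrophage labels (5.61%, 9.3% and 6.8%), 6, 1 and 5 in stellate labels (16.3%, 14.3% and 3.99%) and 7, 8 and 4 in C1q cells (6.25%, 8.57% and 6.11%). They were then 2 in B lymphocyte labels (12.2%) and 4 in marker-led macrophage labels (7.12%) for the last contrast, 1 and 2 in acinar labels for the first and last (8.34% and 5.78%), 1 in ductal labels for caerulein (10.5%) and 1 in endothelial labels for i4F (4.18%). Scaling by library size alone gave 1 in C1q cells for i4F (1.76%), and keeping cells of at least 500 genes gave 1 there for caerulein (8.05%).

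With 2 groups alone the caerulein contrast called 2 members in all cells (46.1% of genes), 8 in immune (20.3%), 3 in non-immune (42.3%), 8 in macrophage (14.5%), 2 in ductal (28.5%) and 1 in stellate labels (38.8%) and 7 in C1q cells (8.6%), and the i4F contrast called 2 in marker-led macrophage labels (0.658%). With the library name series as a term the counts were 0 in macrophage labels for caerulein, 0 in B lymphocyte labels between i4F and caerulein, 0 in marker-led macrophage labels for i4F (0.604%, 0.638% and 0%) and 1 in C1q cells for caerulein (8.19%).

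Replicate numbers name different mice, and same-numbered WT and caerulein mice did not deviate together (r = -0.37 in all cells). With the replicate block, in which i4F 3 has a number of its own, the counts were 8, 1 and 2 in all cells (44.4%, 40.5% and 2.8%), 8 and 8 in immune labels (10.6% and 15.8%) and 4 and 1 in non-immune labels (46.6% and 36.7%) for the first 2 contrasts, 8, 8 and 4 in macrophage labels (6.6%, 9.96% and 3.19%), 2, 1 and 1 in ductal labels (19.2%, 23.5% and 0.8%), 1 in stellate labels for caerulein (35.3%), and 7 and 7 in C1q cells (6.76% and 7.39%). Crossed pairing of the WT and caerulein mice, added after seeing the data, called 1 member in all cells (47.2% of genes), 8 in immune (22.0%), 1 in non-immune (43.1%), 8 in macrophage (15.5%), 1 in ductal (29.6%), 1 in stellate (41.8%) and 1 in endothelial labels (11.8%) and 7 in C1q cells (14.4%).

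Leaving out 1 mouse at a time gave these ranges, with the share of genes called in the fits of the highest count in brackets. They were 0 to 8 (49.8%), 0 to 2 (46.4%) and 0 to 3 (8.61%) in all cells, 0 to 8 (17.6%), 0 to 8 (23.2%) and 0 to 1 (9.62%) in immune labels, 0 to 2 (51.6%), 0 to 1 (43.0%) and 0 to 1 (8.67%) in non-immune labels, 0 to 8 (12.4%), 0 to 8 (16.4%) and 0 to 6 (10.1%) in macrophage labels, and 0 to 2 (26.5%), 0 to 1 (32.2%) and 0 to 1 (3.23%) in ductal labels, each highest count coming without i4F 3. They were 0 to 1 (47.8%), 0 to 1 (39.7%) and 0 (at most 11.5%) in stellate labels, 0 (at most 0.429%), 2 (4.21% to 22.5%) and 1 to 4 (27.6% to 30.7%) in B lymphocyte labels, 0 in acinar (at most 32.7%) and endothelial labels (at most 14.3%), 0 to 7 (2.12% to 11.6%), 0 to 7 (5.63% to 12.3%) and 0 (at most 10.1%) in marker-led macrophage labels, 0 to 7 (11.7%), 0 to 7 (13.5%) and 0 (at most 9.88%) in C1q cells, and 0 to 7 (0.42% and 22.4%), 0 to 8 (19.3%) and 0 (at most 12.0%) for the difference between immune and non-immune labels. Where this leaves 1 WT or caerulein mouse, that mouse is assumed to vary like the others. The cause of these shifts was not tested. With 2 WT mice, of which WT 1 had 46 C1q cells, the depth of Ciita and H2-DMb2 limits their values.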
